A study of Saccharomyces cerevisiae with 6 samples.

Results

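Transcripts of the hexose transporter genes HXT1 to HXT10 of Saccharomyces cerevisiae were examined in S3, a strain rearranged by SCRaMbLE, and in H0, its parent strain. They are 10 of the 6442 genes listed in the deposited tables. The set was chosen from measured values: HXT1 and HXT6 stood among the largest S3 over H0 increases in earlier results of these libraries, and the other members were added by their gene names. The S3 and H0 values of all 10 genes are therefore given as a description, without a test. HXT6 and HXT7, which are almost identical, were also added together.

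The study let Cre recombinase reshuffle a synthetic chromosome V (synV) in haploid yeast and screened the colonies for stronger carotenoid colour. Total RNA was sequenced from 3 S3 and 3 H0 libraries. According to the methods, RNA of only the strains yJBH012 and yJBH000 was sequenced, and S3 was taken as yJBH012 and H0 as yJBH000. The labels themselves give all 6 libraries the same genotype, a yeast with synV and a rearranged genome.

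S3 is a single isolate that lost the segment YEL014C to YEL013W of synV after Cre had been induced from the plasmid pCRE4 with galactose and estradiol. H0 had not been through this rearrangement. Both strains are haploid and carry synV with the carotenoid genes crtE, crtI and crtYB and a LEU2 marker at the CAN1 locus. The labels give 12 h of culture in shaken flasks at 30 °C, whereas the methods give growth in YPD, a rich glucose medium, to an approximate density in the exponential phase that is stated for both strains together. The methods give no density for each culture and no glucose level at harvest. Nothing says whether the replicates came from separate cultures, so the p-values below measure the spread between these libraries, which may be technical.

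Hexose transporters are membrane proteins that let glucose enter the cell by facilitated diffusion, and yeast sets their transcription by how much glucose is outside. Low-affinity carriers serve when glucose is plentiful, and carriers of higher affinity take over as it runs down. The membrane sensors Snf3 and Rgt2 signal through the casein kinases Yck1 and Yck2 to the destruction of Mth1 and Std1, which frees HXT promoters from the repressor Rgt1. Abundant glucose also keeps the Snf1 kinase inactive, so that the repressor Mig1 can hold down genes such as HXT2, HXT4, HXT6 and HXT7.

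Library totals were 18758020, 21568860 and 17675299 counts for S3 and 23877727, 25333938 and 23340054 counts for H0. VAC8 (YEL013W), a gene of the lost segment, had 0, 0 and 1 counts in S3, against 2532, 2473 and 2216 in H0. YEL014C had 0 counts in each S3 library and 84, 83 and 82 counts in H0. H0 replicate 1 stood apart from the other H0 libraries. It lay at least 1 log2 unit above their mean in 49 of 5904 genes (0.83%), and 3 of those 49 genes were HXT4, HXT6 and HXT7. The results that rest on it are given with and without it.

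HXT6 and HXT7 come first because their sequences limit what can be read from them separately. In the R64 reference genome both coding sequences are 1713 bases long and 99.8% identical, and they differ at 3 positions, counted from 1 at the first base of the start codon. The lines show coding bases 1621 to 1688 of each gene, 5′ to 3′, the stretch that holds all the differences (capitals).

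HXT6, chrIV:1159633-1159700, R64, minus strand: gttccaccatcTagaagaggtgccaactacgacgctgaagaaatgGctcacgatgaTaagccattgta
HXT7, chrIV:1154241-1154308, R64, minus strand: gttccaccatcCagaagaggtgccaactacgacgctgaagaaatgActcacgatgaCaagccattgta

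With the HXT6 base first and the HXT7 base last, the differences are T1632C, G1666A and T1677C. G1666A, in codon 556, is the only one that changes the amino acid. The 1631 coding bases before the first difference are the same in both genes, as are the 84 bases directly before the start codon. Of the 1614 windows of 100 bases in each gene, 82 (5.08%) occur only once in the genome. How reads that match both genes were counted is not given in the sources used here, so a split between the genes is uncertain. Their sum does not depend on that split, but it does depend on whether such reads were counted at all. If they were left out, the sum would be too low beside members with unique sequence. The pair's share of the family and its place in the order would then be too low as well.

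Upstream sequences are shown because binding sites for Rgt1 lie before HXT genes. They are those of HXT4, HXT3 and HXT2, the members with the most transcript in S3, and of HXT1, which differed most between the strains among the members whose reads can be told apart. Each line holds the 120 bases, within 1000 bases before the start codon, with the most matches to CGGANNA, the letters bound by Rgt1, read on either strand. Matches are in capitals.

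HXT4, chrVIII:288993-289112, R64, minus strand: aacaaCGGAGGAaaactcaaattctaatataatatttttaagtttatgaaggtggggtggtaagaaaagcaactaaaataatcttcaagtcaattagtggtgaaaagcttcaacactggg
HXT3, chrIV:1164988-1165107, R64, minus strand: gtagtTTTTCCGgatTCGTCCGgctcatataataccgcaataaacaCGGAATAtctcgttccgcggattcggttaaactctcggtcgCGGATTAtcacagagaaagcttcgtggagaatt
HXT2, chrXIII:287644-287763, R64, plus strand: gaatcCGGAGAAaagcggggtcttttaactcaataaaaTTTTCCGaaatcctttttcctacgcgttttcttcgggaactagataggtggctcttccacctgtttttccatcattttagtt
HXT1, chrVIII:292995-293114, R64, minus strand: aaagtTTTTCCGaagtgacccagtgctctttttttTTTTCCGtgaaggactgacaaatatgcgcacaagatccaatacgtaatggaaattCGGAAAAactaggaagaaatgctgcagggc

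The stretch before HXT3 holds 4 matches, that before HXT1 holds 3, that before HXT2 holds 2 and that before HXT4 holds 1. All 4 genes lie outside the synthetic chromosome V.

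Together the 10 genes gave more transcript in S3 than in H0, and a different mixture. Their summed FPKM (counts scaled by gene length and library total) was 6463, 5162 and 5932 in S3 and 1857, 1700 and 1748 in H0. This was 0.470% ± 0.0524 of the FPKM sum of all genes in S3 and 0.151% ± 0.00819 in H0 (SD, n = 3 each). All S3 libraries lay above all H0 libraries. Levels here are shares of a library, and in RNA from a whole culture, more transcript in every cell and more cells with the transcript cannot be told apart.

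**Figure D1:**
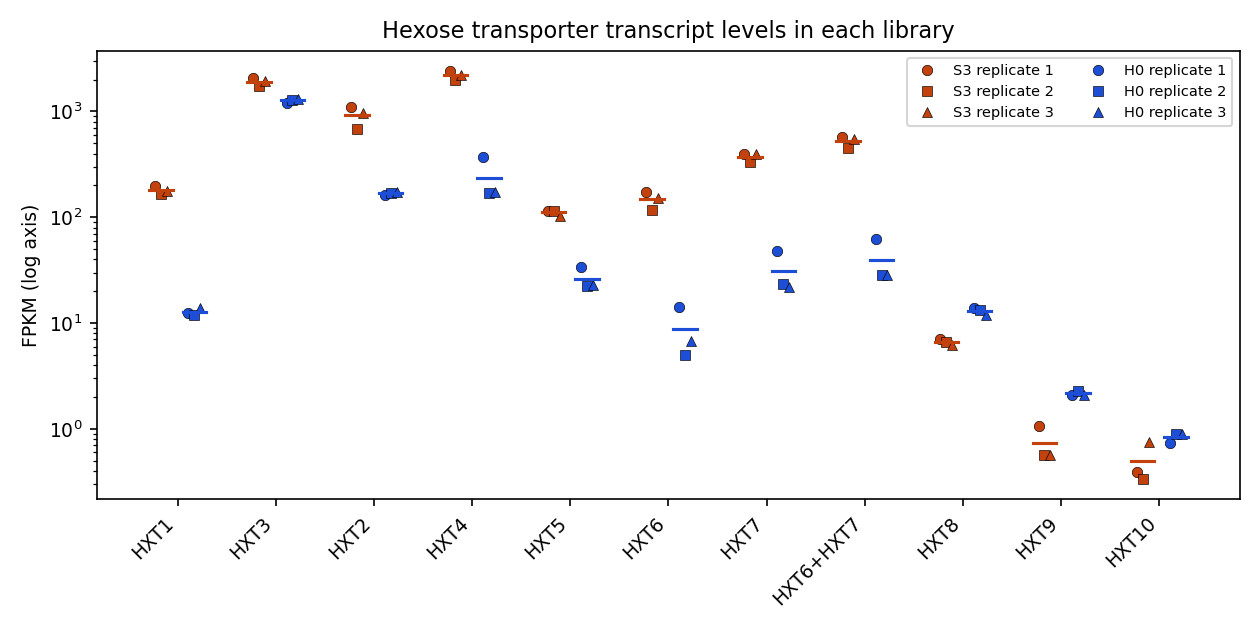
FPKM on a log axis for each hexose transporter gene and for the sum of HXT6 and HXT7, with 1 point per library (S3 orange, H0 blue) and a line at the group mean. S3 points lie above H0 points for HXT1 to HXT7 and below them for HXT8 and HXT9, and the points of HXT10 overlap.

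In the edgeR quasi-likelihood fit over 5904 genes, all 10 members had enough counts to be tested. At a Benjamini-Hochberg adjusted p under 0.05, 7 members were called higher in S3, where 34.2% of all genes were. A further 2 members were called lower, where 36.2% of all genes were. In 9 of the 10 members the S3 and H0 libraries did not overlap in CPM (counts scaled by library total and TMM factor), as in 75.5% of all genes. The median log2 fold change (S3 over H0) was 2.60 over the members and -0.01 over all genes tested. These shares include the contrast by which the genes were picked, and nothing is read from them.

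HXT1 and HXT3 encode the low-affinity carriers, the ones used when glucose is abundant. HXT3 had 2069, 1748 and 1924 FPKM in S3, against 1198, 1284 and 1323 FPKM in H0. The libraries of the strains did not overlap, and the log2 fold change was 0.93 (SE 0.10), the smallest among the 7 members with more transcript in S3. Unless library totals are named, log2 fold changes use TMM factors and FPKM does not, so they are on different scales. HXT1 had 196, 167 and 178 FPKM in S3, against 12.4, 11.8 and 13.8 FPKM in H0. Its H0 libraries were tight, including replicate 1, and its log2 fold change was 4.17 (SE 0.10), a 17.9-fold difference. The coding sequences of the 2 genes are 82.3% identical, each the other's closest relative, yet 98.8% of the 100-base windows of HXT1 and 96.4% of those of HXT3 occur once in the genome.

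HXT2, HXT4 and HXT5 were grouped as carriers of intermediate affinity. HXT2, whose product can also work at high affinity, had 1106, 685 and 970 FPKM in S3, against 164, 168 and 174 FPKM in H0. S3 replicate 2 was the low one, and the S3 libraries spanned 0.70 log2 units of CPM. The log2 fold change of HXT2 was 2.78 (SE 0.18). HXT4, which glucose represses through Mig1, had 2402, 1987 and 2204 FPKM in S3, against 370, 170 and 172 FPKM in H0. H0 replicate 1 held more than the other H0 libraries by 1.09 log2 units, and still lay below every S3 library. The log2 fold change of HXT4 was 3.55 (SE 0.32), and 4.01 (SE 0.09) without H0 replicate 1. HXT5, known for its expression in slowly growing and stationary cells, had 115, 115 and 103 FPKM in S3, against 33.7, 22.2 and 22.8 FPKM in H0. Here too H0 replicate 1 was the highest H0 library. The log2 fold change of HXT5 was 2.42 (SE 0.16), and 2.63 (SE 0.06) without that library.

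HXT6 and HXT7 encode the high-affinity carriers, which serve at low glucose. Their sum was 567, 453 and 546 FPKM in S3, against 61.9, 28.3 and 28.7 FPKM in H0. H0 replicate 1 was 1.09 log2 units above the other H0 libraries and far below S3. The pair had a log2 fold change of 4.06 (SE 0.33), and 4.52 (SE 0.11) without H0 replicate 1. As the files split the reads, HXT7 had 392, 336 and 394 FPKM in S3, against 47.5, 23.2 and 21.9 FPKM in H0. HXT6 had 174, 117 and 152 FPKM in S3, against 14.3, 5.02 and 6.83 FPKM in H0. HXT6 took 25.8% to 30.8% of the pair's counts in S3 and 17.8% to 23.8% in H0. Those ranges lie side by side without touching, but they rest on the few bases that tell the genes apart.

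HXT8, HXT9 and HXT10 were grouped as the weakly transcribed members, which are seldom the main glucose carriers in the cell. In H0, however, HXT8 had a mean of 12.9 FPKM, beside 12.7 for HXT1 and 8.73 for HXT6. HXT8 had 7.08, 6.56 and 6.19 FPKM in S3, against 13.8, 13.2 and 11.8 FPKM in H0. It went the other way from HXT1 to HXT7, without overlap, with a log2 fold change of -0.63 (SE 0.10). HXT9, whose product has been tied to drug resistance, had 34, 21 and 17 counts in S3, against 85, 99 and 84 counts in H0. Its log2 fold change was -1.23 (SE 0.26) on few reads, and only 52.9% of its 100-base windows occur once in the genome, since HXT11 is 97.2% identical to it. HXT10 had 12, 12 and 22 counts in S3, against 29, 37 and 34 counts in H0. Scaled for library size its values overlapped between the strains. The log2 fold change of HXT10 was -0.44 (SE 0.33), with an approximate 95% interval from -1.09 to 0.20 that reaches both sides of 0. This interval was made from the SE with the normal distribution, which is too narrow for 3 libraries per strain.

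**Figure D2:**
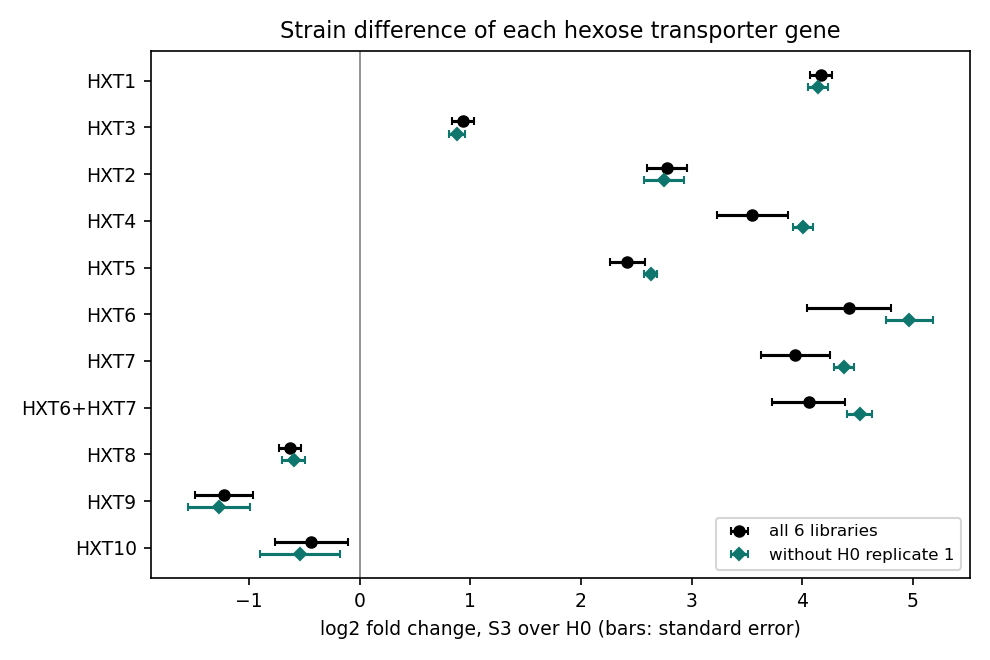
log2 fold change (S3 over H0) of each hexose transporter gene and of the sum of HXT6 and HXT7, with bars of 1 standard error, from all 6 libraries (black circles) and without H0 replicate 1 (green diamonds). Without that library the values of HXT4, HXT5, HXT6 and HXT7 move further from 0, to 4.01, 2.63, 4.97 and 4.38, and those of the other members move little.

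High-affinity and low-affinity genes both had large differences. Without H0 replicate 1, HXT6 was at 4.97 (SE 0.21), HXT7 at 4.38 (SE 0.09) and HXT1 at 4.14 (SE 0.09). HXT3, the other low-affinity gene, was at 0.88 (SE 0.07). Members of 1 affinity class therefore did not share 1 size of difference. The choice of scale moved every member by a similar amount. With library totals in place of TMM factors the median of all genes was -0.35, HXT3 was at 0.59, HXT1 at 3.83 and HXT4 at 3.21.

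Per unit of gene length, the order of the members differed between the strains. In S3 the order ran HXT4, HXT3, HXT2, HXT7, HXT1, HXT6, HXT5, HXT8, HXT9 and HXT10 by mean FPKM. The ranges of HXT4 and HXT3 overlapped there, as did those of HXT1 and HXT6 and those of HXT9 and HXT10. In H0 it ran HXT3, HXT4, HXT2, HXT7, HXT5, HXT8, HXT1, HXT6, HXT9 and HXT10. Neighbours whose ranges overlapped in H0 were HXT4 and HXT2, HXT7 and HXT5, HXT8 and HXT1, and HXT1 and HXT6. Among all 6442 genes HXT3 stood at rank 136 in S3 and 137 in H0. HXT4 stood at rank 112 in S3 and 929 in H0, and HXT1 at rank 1001 in S3 and 5278 in H0.

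The mixture shows the same as shares of the family's summed FPKM. HXT3 alone made up 32.0%, 33.9% and 32.4% in S3, against 64.5%, 75.5% and 75.7% in H0. HXT4 made up 37.2%, 38.5% and 37.2% in S3, against 19.9%, 9.97% and 9.82% in H0. HXT3 was thus the main transcript in every H0 library, and HXT4 was slightly ahead of it in every S3 library. The ratio of HXT4 to HXT3 FPKM was 1.14 to 1.16 in S3 and 0.13 to 0.309 in H0. It was almost the same in the 3 S3 libraries, although their summed family FPKM ran from 5162 to 6463.

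By affinity class, HXT1 and HXT3 together gave 35.9% ± 1.08 of the family's FPKM in S3 and 72.6% ± 6.44 in H0 (SD, n = 3 each). The intermediate genes HXT2, HXT4 and HXT5 gave 55.1% ± 1.01 in S3 and 24.3% ± 5.48 in H0. The high-affinity pair gave 8.92% ± 0.245 in S3 and 2.21% ± 0.970 in H0. In none of these classes did the libraries of the strains overlap. H0 replicate 1 was the H0 library nearest to S3 in all of them, with 65.2% low, 30.6% intermediate and 3.33% high affinity. HXT8, HXT9 and HXT10 together stayed under 1%, with 0.135% ± 0.00929 in S3 and 0.903% ± 0.0593 in H0.

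**Figure D3:**
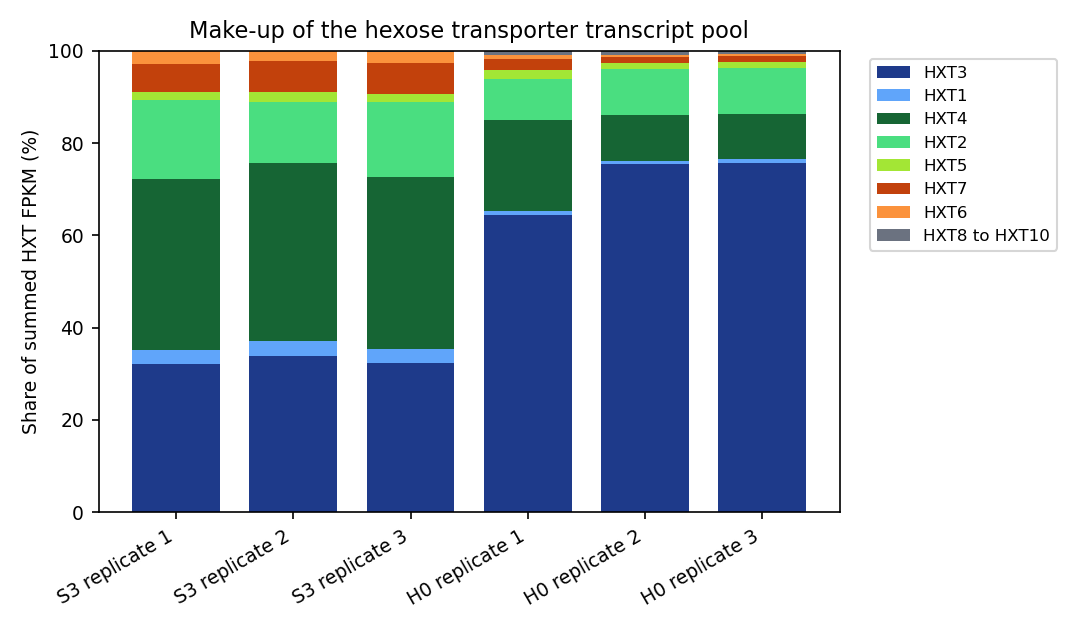
Share of the summed FPKM of HXT1 to HXT10 held by each gene, 1 bar per library, S3 left and H0 right. HXT3 (dark blue) takes 32.0% to 33.9% of the S3 bars and 64.5% to 75.7% of the H0 bars, and HXT4 (dark green) takes 37.2% to 38.5% in S3 and 9.82% to 19.9% in H0.

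H0 replicate 1 did not shift the whole family. Relative to the mean of the other H0 libraries it was higher by 1.25 log2 units in HXT6, 1.09 in HXT4, 1.04 in HXT7 and 0.55 in HXT5. It was at -0.15 in HXT3, -0.08 in HXT2 and -0.06 in HXT1, beside spans of 0.11 to 0.24 log2 units among the 3 H0 libraries in these genes. Outside the family, the hexokinase gene HXK1 was higher in that library by 1.30 log2 units and MTH1 by 0.74, while ADH2 was at -0.22. The median over 10 glucose-repressed genes was 0.39 and that over all genes -0.01. In HXT4, HXT5, HXT6 and HXT7 the strain difference was larger without this library than with it.

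**Figure D4:**
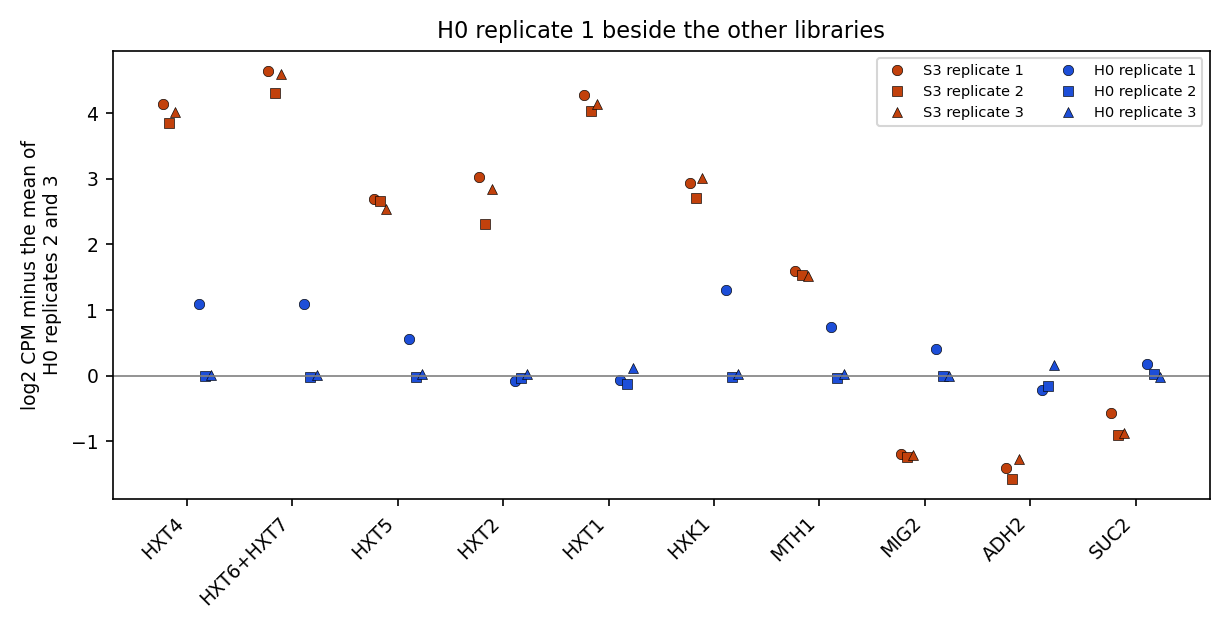
log2 CPM of hexose transporter genes and 5 genes of glucose use in each library, minus the mean of H0 replicates 2 and 3 (line at 0), with S3 in orange and H0 in blue. H0 replicate 1 (blue circle) lies 1.09 above the line in HXT4 and 1.30 above it in HXK1, near the line in HXT1 and HXT2, and in each gene on the H0 side of the S3 points.

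The closest profiles of the members lay partly within the groups described above and partly across them. Profiles were compared as the root mean square (RMS) difference of centred log2 CPM over the 6 libraries, where a smaller value is more alike. Within groups, HXT6 and HXT7 were 0.32 apart, HXT2 and HXT5 0.35, HXT8 and HXT9 0.39 and HXT8 and HXT10 0.40. How reads that match both HXT6 and HXT7 were counted is not given, so their likeness may come in part from shared reads. Across groups, HXT4 and HXT7 were 0.20 apart and HXT1 and HXT7 0.39. HXT1 and HXT3, the low-affinity genes, were 1.62 apart. These are descriptions over 6 libraries of 2 strains that share their scaling, so a small distance mostly needs a strain difference of like size.

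The 3 genes nearest to each main member were looked up among 5164 genes of at least 4 mean log2 CPM. Nearest to HXT1 were PMA2, a plasma membrane proton pump (RMS 0.19), RPS22B, a ribosomal protein (0.25), and ADE17, an enzyme of purine synthesis (0.26), where the median of all genes was 2.09. For HXT2 they were ASC1, a ribosome-bound protein (0.20), ENO1, an enolase (0.22), and OLE1, the fatty acid desaturase (0.23), with a median of 1.40. PMA2, RPS22B and ENO1 have close copies in the genome, with which they may share reads. For HXT3 they were ADE8 of purine synthesis, RTN1 of the endoplasmic reticulum and IES6 of a chromatin remodeller, at 0.05 each against a median of 0.50. HXT4 lay nearest to ISF1 (0.16), HSP30, a stress protein of the plasma membrane (0.27), and the kinase gene VHS1 (0.33). HXT5 lay nearest to HAP4, the activator of respiratory genes (0.08), PIG2 (0.08) and TPS2, an enzyme of trehalose synthesis (0.11). For the HXT6 and HXT7 sum they were HSP30 (0.14), ISF1 (0.40) and PMA2 (0.43). H0 replicate 1 was among the 6 libraries compared, so genes picked as near HXT4, HXT5 and the pair tend to share its rise by selection. In that library HSP30 was higher by 1.20 log2 units, ISF1 by 0.84, TPS2 by 0.58 and PIG2 by 0.57. HAP4 was higher by 0.43 and VHS1 by 0.39, while PMA2 was at 0.03.

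The family is clustered in the genome. In R64, HXT7, HXT6 and HXT3 follow each other on chromosome IV, with 3679 bases between HXT7 and HXT6 and 1636 between HXT6 and HXT3. HXT4, HXT1 and HXT5 follow each other on chromosome VIII, with 2101 and 2043 bases between them. All 6 lie on the minus strand. HXT2 is on chromosome XIII, HXT8 and HXT9 on X and HXT10 on VI. No member lies on chromosome V, the synthetic one, and each has a single coding exon that overlaps no other coding gene. HXT7 and HXT6, with no coding gene between them, had log2 fold changes of 3.94 and 4.42, and HXT1 and HXT5, also with none between them, had 4.17 and 2.42. YDR344C lies between HXT6, at 4.42, and HXT3, at 0.93, and YHR093W between HXT4, at 3.55, and HXT1, at 4.17.

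The 1000 bases before each start codon were searched for the letters of 3 regulators on both strands, and counts were compared with 6002 upstream regions of the same length. CGGANNA (Rgt1) was found 9 times before HXT3, 8 times before HXT1, 6 times before HXT8 and 4 times before HXT5. It was found 3 times before HXT2, HXT4, HXT6 and HXT9, 2 times before HXT7 and 0 times before HXT10. Of all regions, those of the members included, 66.6% held at least 1 match. At least as many as before HXT3 were held by 0.0167%, at least as many as before HXT1 by 0.0333% and at least as many as before HXT4 by 11.2%. HXT3, with the most matches, had the smallest log2 fold change among HXT1 to HXT7 (0.93), and HXT1, with the next most, had one of the largest (4.17).

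The letters bound by Mig1 are 4 G bases after C or T, with C or G before that. They occurred 4 times before HXT2 and HXT4 (0.833%), 3 times before HXT6 (2.88%), 2 times before HXT1, HXT3 and HXT7 (12.0%) and once before the other members (41.8%). The shares in brackets here and below are of regions with at least as many matches. AGGGG, the stress response element (STRE) bound by Msn2 and Msn4, occurred 5 times before HXT6 (0.633%), 4 times before HXT7 (2.23%) and 2 times before HXT5 (21.1%). It occurred once before HXT1, HXT3, HXT4, HXT9 and HXT10 (55.0%) and 0 times before HXT2 and HXT8. Mig1 letters and AGGGG cannot fall on the same run of G bases. A match is a stretch of letters and not a measured binding site. Of the searched bases, 549 before HXT4 and 315 before HXT6 lie in other coding regions.

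**Figure D5:**
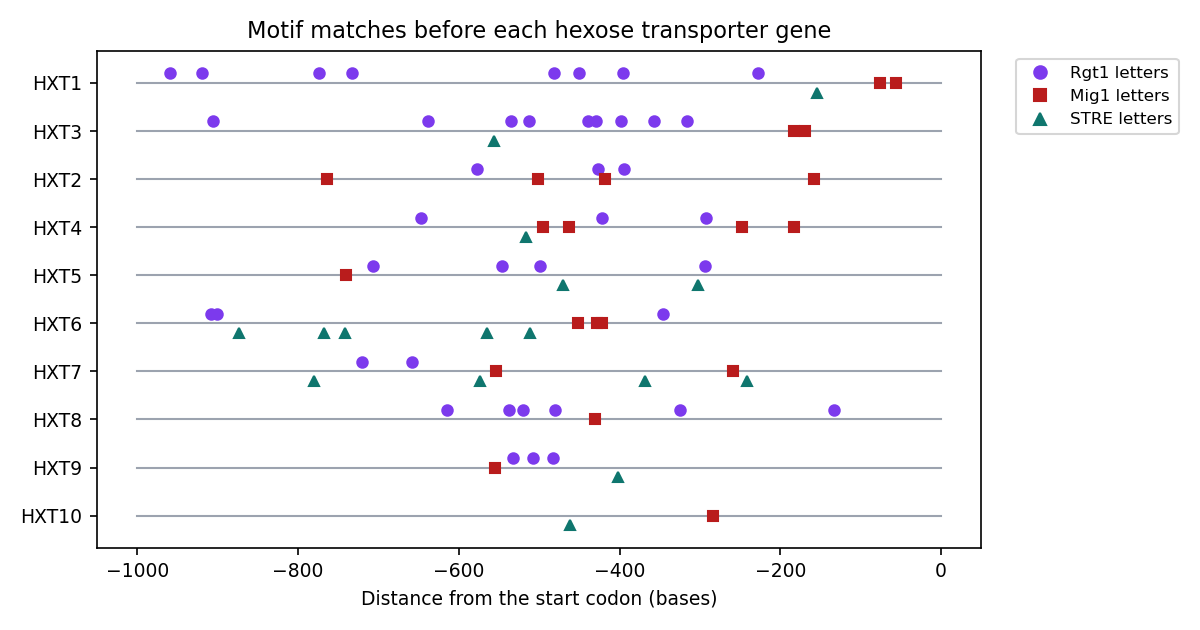
Positions of matches to the Rgt1 (circles), Mig1 (squares) and STRE (triangles) letters in the 1000 bases before each member, as the distance in bases from the start codon. HXT3 and HXT1 hold 9 and 8 Rgt1 matches, HXT2 and HXT4 hold 4 Mig1 matches each, and HXT6 holds 5 STRE matches.

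The 5 gene lists from here on were chosen with earlier results of these libraries known, so their calls are not independent evidence. Of the other 7 hexose transporter genes, 5 had enough counts for a test. Of these 5, 2 were called lower in S3, near the 36.2% of all genes called lower, and 3 were not called. HXT15 fell by 1.82 on the log2 scale (SE 0.18, edgeR quasi-likelihood adjusted p = 8.5e-05), with all 3 S3 libraries below H0. It is 99.9% identical to HXT16, so the genes' reads cannot be separated with certainty. HXT11 fell by 0.87 (SE 0.12, edgeR adjusted p = 0.000462), in 3 of 3 libraries, and shares 97.2% of its sequence with HXT9. HXT13 at 0.03 (SE 0.18), HXT17 at 0.14 (SE 0.13) and GAL2, the galactose permease, at 0.14 (SE 0.15) did not pass. The median log2 fold change of these 5 was 0.03, and that of all genes tested was -0.01.

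Among 10 genes of the sensor and Rgt1 pathway that acts on HXT promoters, 5 were called higher, 3 lower and 2 not called in S3, where 34.2% of all genes were called higher and 36.2% lower. The lower share is near that of all genes. The sensors went in opposite directions. RGT2, the sensor for high glucose, had 46.9, 52.0 and 45.5 CPM in S3, against 127, 121 and 124 CPM in H0, and fell by 1.36 on the log2 scale (SE 0.06, edgeR adjusted p = 4.17e-06). SNF3, the sensor for low glucose, had 93.3, 74.8 and 86.8 CPM in S3, against 56.0, 43.6 and 42.7 CPM in H0, and rose by 0.84 (SE 0.13, edgeR adjusted p = 0.000682). MTH1, the corepressor that sensing destroys, had 563, 539 and 534 CPM in S3, against 313, 183 and 191 CPM in H0. It rose by 1.25 (SE 0.20, edgeR adjusted p = 0.000919), and by 1.54 without H0 replicate 1. RGT1, the repressor itself, had 111, 99.6 and 105 CPM in S3, against 160, 145 and 147 CPM in H0, and fell by 0.52 (SE 0.06, edgeR adjusted p = 0.000247). The S3 and H0 libraries did not overlap in these 4 genes, nor in 75.5% of all genes.

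Of the smaller differences in the same pathway, those of CYC8 and YCK1 kept their sign and call with library totals, and those of YCK2 and STD1 did not. CYC8, a corepressor that works with Rgt1, rose by 0.65 (SE 0.05, edgeR adjusted p = 2.3e-05), in 3 of 3 libraries. YCK1 fell by 0.25 (SE 0.05, edgeR adjusted p = 0.00376), while its paralog YCK2 rose by 0.31 (SE 0.05, edgeR adjusted p = 0.00105). STD1, the paralog of MTH1, rose by 0.22 (SE 0.05, edgeR adjusted p = 0.00789). With library totals YCK2 was at -0.02 and STD1 at -0.12, and neither was called. GRR1, which marks Mth1 for destruction, at -0.09 (SE 0.05), and TUP1, the partner of Cyc8, at 0.08 (SE 0.06) did not pass. With library totals both were called lower, GRR1 at -0.43 (edgeR adjusted p = 8.37e-05) and TUP1 at -0.25 (edgeR adjusted p = 0.0047). In that setting 3401 of all 5904 genes were called lower, and the median of all genes was -0.35.

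Among 10 genes of the Snf1 and Mig1 pathway, 6 were called higher, 1 lower and 3 not called, beside 34.2% higher and 36.2% lower over all genes. MIG2, a repressor of HXT genes that high glucose induces, had 70.9, 68.7 and 70.5 CPM in S3, against 216, 163 and 163 CPM in H0. It fell by 1.37 on the log2 scale (SE 0.12, edgeR adjusted p = 3.95e-05). Its relatives MIG1 at 0.12 (SE 0.13) and MIG3 at 0.03 (SE 0.09) did not pass, nor did REG1 at -0.08 (SE 0.06), and without H0 replicate 1 MIG1 was at 0.27 with an edgeR adjusted p of 0.00828. SIP2, a subunit of the Snf1 complex, rose by 1.56 (SE 0.07, edgeR adjusted p = 3.68e-06), and SNF1, its kinase, rose by 0.74 (SE 0.06, edgeR adjusted p = 2.71e-05), both in 3 of 3 libraries. The other genes called were SIP1, which rose by 0.68, GLC7, the phosphatase that counters Snf1, by 0.55, and the Snf1 subunits SNF4, by 0.44, and GAL83, by 0.24. With library totals SNF4 was at 0.10 and GAL83 at -0.10, and neither was called. MIG3 at -0.31 (edgeR adjusted p = 0.0142) and REG1, a regulatory subunit of Glc7, at -0.41 (edgeR adjusted p = 0.000552) were then called lower. So were 3401 of all 5904 genes in that setting, where the median of all genes was -0.35.

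All 4 hexose kinase genes, which trap the sugar that the carriers bring in, were called higher in S3, as were 34.2% of all genes. HXK1, the isoform that glucose represses, had 4924, 4176 and 5180 CPM in S3, against 1580, 634 and 650 CPM in H0. It rose by 2.32 on the log2 scale (SE 0.36, edgeR adjusted p = 0.000862), and by 2.89 without H0 replicate 1, which was higher than the other H0 libraries as it was in HXT4, HXT6 and HXT7. GLK1, the glucokinase gene, had 3291, 3121 and 3512 CPM in S3, against 1243, 1123 and 1173 CPM in H0, and rose by 1.49 (SE 0.09, edgeR adjusted p = 8.36e-06). EMI2, a glucokinase paralog, rose by 1.60 (SE 0.20, edgeR adjusted p = 0.000249). HXK2, the isoform of high glucose, rose by 0.36 (SE 0.08, edgeR adjusted p = 0.00478), and was at 0.02 and not called with library totals.

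Of 10 other genes that glucose represses, 1 was called higher in S3, 4 lower and 5 not called, with a median log2 fold change of -0.22. Over all genes 34.2% were called higher and 36.2% lower, so the share called lower was near that of all genes. ADH2, the alcohol dehydrogenase for ethanol use, had 32.4, 29.1 and 36.0 CPM in S3, against 74.0, 77.1 and 96.8 CPM in H0, and fell by 1.35 (SE 0.12, edgeR adjusted p = 5.57e-05). SUC2, the invertase gene, had 133, 105 and 108 CPM in S3, against 224, 200 and 195 CPM in H0, and fell by 0.84 (SE 0.10, edgeR adjusted p = 0.000249). ACS1, an acetyl-CoA synthetase, fell by 0.86 (edgeR adjusted p = 0.00108) and FBP1 of gluconeogenesis by 0.63 (edgeR adjusted p = 0.00254). GUT1, glycerol kinase, rose by 0.96 on the log2 scale (edgeR adjusted p = 0.000716). PCK1, ICL1, MLS1, JEN1 and CAT8 did not pass. Without H0 replicate 1, ICL1 at 0.28, MLS1 at 0.48 and CAT8 at 0.57 were called higher, which makes 4 of the 10. Over all genes the number called higher rose as well, from 2022 with all 6 libraries to 2270 without that library. Nothing is read from the count of 4. With library totals, PCK1 at -0.61 (edgeR adjusted p = 0.00176) and JEN1 at -0.51 (edgeR adjusted p = 0.00937) were called lower. So were 3401 of all 5904 genes in that setting, where the median of all genes was -0.35.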

How the data were processed

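The authors counted reads per gene and deposited these counts without normalization, together with FPKM values made from them. The submitters' processing notes name HTSeq 0.6.1 and DESeq 1.18.0. The aligner, genome build, annotation and use of strand are not given in the sources used here. Dividing count by FPKM and library total gave the same gene length in all libraries for 6243 genes (within 0.1%), which equalled the R64 coding length in 99.1% of 5915 genes compared. Of 6442 gene IDs, 6436 matched the R64 table, and all sequences come from the RefSeq R64 genome.

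The 2-sided quasi-likelihood test of edgeR 4.0.16 (R 4.3.3) was run on the counts of 5904 genes that passed filterByExpr, scaled by TMM, with adjustment by Benjamini-Hochberg. Log2 CPM used a prior count of 2. The standard error is the log2 fold change divided by the square root of its F. FPKM was used for levels between genes. The replicate number was not used as a block. The test was checked on simulated data. Alternatives were library totals, DESeq2 1.42.0, other filters, a replicate block, each library left out, and limma 3.58.1 on FPKM as log2 after adding 1 or 0.1. Profiles, identities and motifs were computed in Python 3.11.15 with numpy 2.4.6, pandas 2.3.3 and Biopython 1.88.

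The members and the 5 pathway lists were chosen with earlier results of these data known. Named are all members, called members of the lists, and the 3 nearest profiles of each main member; the genes given as not called are named in addition. Reads carry no molecular identifiers, and the totals of 17675299 to 25333938 counts leave HXT9 and HXT10 with under 100 counts a library.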

Additional observations from a re-analysis of the deposited data

How the results depend on the processing

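The log2 fold changes of the members kept their sign under all 14 alternatives. They ran from 3.73 to 4.24 for HXT1, 0.59 to 1.0 for HXT3 and 3.21 to 4.01 for HXT4. The sum of HXT6 and HXT7 ran from 3.72 with library totals to 4.52 without H0 replicate 1. Scaling moved the split of calls: 2022 genes were called higher and 2138 lower with TMM factors, against 1144 and 3401 with library totals, 1147 and 3383 with log2(FPKM + 1), and 1143 and 3382 with log2(FPKM + 0.1). The pathway genes moved in the same directions as all genes. With TMM factors 16 of them were called higher and 10 lower, and with each of these 3 alternatives 11 were called higher and 16 lower. Measured by counts, the family took 0.997% of S3 libraries and 0.301% of H0 libraries. With a replicate block, 1950 genes were called higher and 2048 lower, and the HXT6 and HXT7 sum was at 4.15. To look for pairing, the strain mean of each gene was taken off its log2 CPM. What remained correlated at -0.007, 0.077 and 0.077 between S3 and H0 libraries of the same number. Between libraries of different number it correlated at -0.115 to 0.04. All these values were small, and the numbers were not read as pairs. HXT9 and HXT10 rest on few counts.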

Other observations

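HXT16, chosen after its values were seen, had 5, 3 and 2 counts in S3 libraries and 112, 4 and 550 counts in H0 libraries. It was left out of the test by the filter on low counts. The H0 libraries differed by more than 100-fold among themselves, and the high one was replicate 3, not replicate 1. HXT15, 99.9% identical to HXT16, had 42, 40 and 27 counts in S3 libraries and 225, 191 and 191 counts in H0 libraries.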
